A study of Arabidopsis thaliana with 4 samples.

Results

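Chloroplasts return electrons from photosystem I to plastoquinone by a pair of cyclic routes, and the 10 nuclear genes described here serve both of them. The first 7 encode subunits of the NADH dehydrogenase-like (NDH) complex of the thylakoid membrane: NDHL, NDHM, NDHN, NDHO, NDHS, PNSB1 and PNSL1. The other 3 belong to the route that needs PROTON GRADIENT REGULATION 5, namely PGR5 itself and the PGR5-like genes PGRL1A and PGRL1B. Members were chosen by locus identifier, by a rule that uses no measured value, though with earlier results of these data known, and all 10 were found among the 33602 gene models counted in each library. All 10 also passed the filter on low counts, which left 11938 genes for testing.

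The study set a knock-out of otp90, the line SM_3_29659 of Arabidopsis thaliana, against Col-0, its wild type. Both genotypes were represented by 2 libraries of total RNA, sampled without treatment from the above-ground parts of plants on soil at Boyes growth stage 1.09, under light of at most 90 µE per square metre and second and at 18 to 21 °C. A single line stood for the mutant. The level of the disrupted gene was not analysed here, so the genotype labels have no check from it, and whether the libraries of a genotype represent separate plants is not stated. P-values here reflect the variation among the 4 libraries and nothing wider, and that variation may be technical.

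As background, the NDH complex accepts electrons from reduced ferredoxin and passes them to plastoquinone, pumping protons into the thylakoid lumen. It is a mosaic of plastid and nuclear products: plastid ndh genes encode the membrane core and some stromal subunits, while nuclear genes encode the rest, on the stromal and the lumen side. The PGR5 route is the main cyclic path of Arabidopsis in strong or fluctuating light, and PGRL1 proteins bind PGR5 at the membrane. Plants that lack either route alone grow nearly normally under steady moderate light, and plants that lack both are strongly impaired.

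The libraries held 1489112 and 1841972 counted reads in otp90, against 2685718 and 1828745 in Col-0, for replicates 1 and 2 in each case. The 10 genes took 893 and 1279 of these reads in otp90 and 930 and 1583 in Col-0, so single genes rested on 7 to 361 reads per library. Levels are given as CPM, the reads of a gene scaled to a common library total, after normalisation of the libraries by the trimmed mean of M-values (TMM). Leaf markers summed to 19379 and 12145 CPM in otp90 and 14064 and 16026 CPM in Col-0. Of 7 root, 5 flower and 3 seed markers only the root gene PYK10 passed the count filter. The root list summed to 34.1 and 95 CPM in otp90 and 24.2 and 38.2 CPM in Col-0, the flower list to 3.32 and 5.69 CPM in otp90 and 4.52 and 8.73 CPM in Col-0, and the seed list to 2.49 and 6.82 CPM in otp90 and 9.03 and 4.91 CPM in Col-0. The part of root tissue in the results below was not tested. Of the 10 members 9 had their lowest level in Col-0 replicate 1, as did 26.3% of all genes tested. The margin was small in PNSL1 (36.1 against 36.6 CPM in otp90 replicate 1) and PGR5 (27.9 against 33.3 CPM in Col-0 replicate 2).

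Compared per kilobase of gene model, 9 of the 10 genes averaged 40.4 to 110 CPM per kb and PGRL1B lay below them. PGRL1A, which anchors PGR5, had the highest mean at 110 ± 34.3 CPM per kb (SD, n = 4 libraries of both genotypes). PNSB1, a stromal subunit of the B subcomplex, followed at 88.2 ± 38.4 CPM per kb. NDHS, the subunit that offers the ferredoxin-binding site, was at 73.7 ± 26.3, NDHL at 71.7 ± 19.4 and NDHM at 69.5 ± 40.9 CPM per kb. PNSL1, a PsbP-like protein on the lumen side, was at 57.1 ± 25.0, NDHO at 56.5 ± 27.3, PGR5 at 53.9 ± 16.7 and NDHN at 40.4 ± 22.9 CPM per kb. Gaps between neighbours in this order from PGRL1A down to NDHN were smaller than their SDs, which include differences between libraries that the genes share. PGRL1A lay above PNSB1 in every library, while the other neighbouring pairs changed order between libraries. Differences between neighbours were not tested. These 9 genes stood at the 85.7th to the 94.7th percentile of the nuclear genes tested, whose median was 10.3 CPM per kb. PGRL1B averaged 5.58 ± 2.90 CPM per kb, the 24.1th percentile, and its highest library, at 9.48, lay below the lowest library of NDHN, at 12.2.

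**Figure D1:**
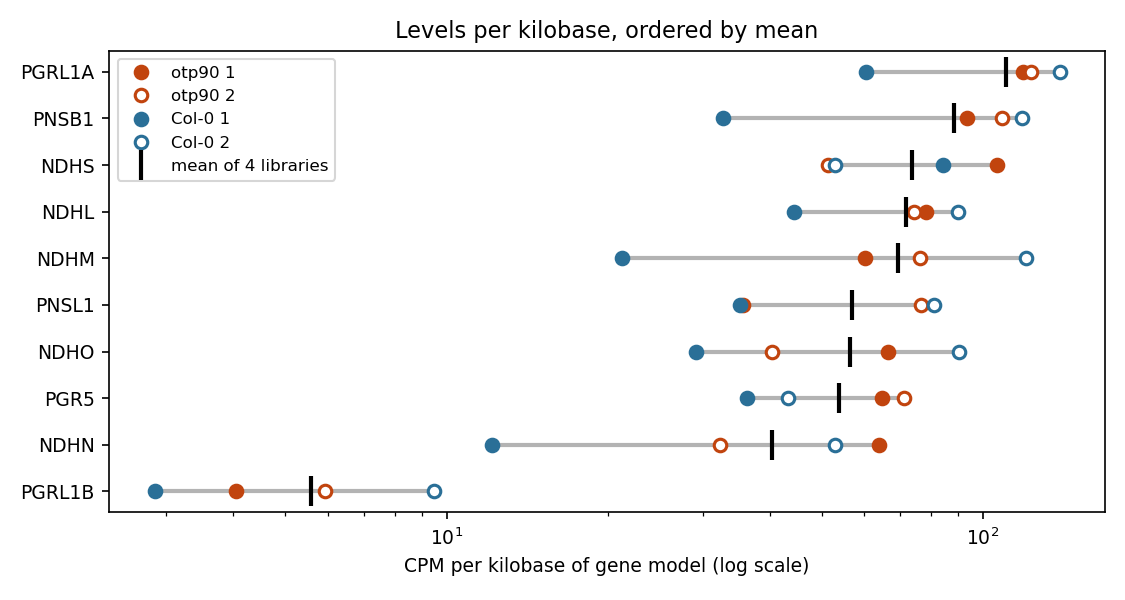
Level of each gene in CPM per kilobase of gene model on a logarithmic x axis, with genes ordered by mean on the y axis; orange points are otp90 libraries, blue points Col-0 libraries, filled points replicate 1, open points replicate 2, and black bars the mean of 4 libraries. PGRL1B, at 5.58 CPM per kb on average, lies apart from the other 9 genes, which average 40.4 to 110 CPM per kb, and Col-0 replicate 1 is the leftmost point in every gene except NDHS.

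No member passed the test for a difference between genotypes. With edgeR's quasi-likelihood test and Benjamini-Hochberg adjustment over all genes tested, 0 of 10 members were called, against 0% of all genes. At an unadjusted p under 0.05 there were also 0 members, against 1.41% of all genes. DESeq2 and edgeR's likelihood ratio test called 0 members and 0 of all genes tested. Of the 10 log2 fold changes 6 were positive, with a median of 0.19, against 49.2% positive and a median of -0.01 over all genes tested. In these whole-organ samples, fewer cells of a type and less RNA per cell cannot be told apart.

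PGR5 was the member with the clearest separation by genotype. PGR5 (AT2G05620), a small stromal protein without which the PGR5 route is lost, was at 49.9 and 54.6 CPM (60 and 96 reads) in otp90, against 27.9 and 33.3 CPM (68 and 61 reads) in Col-0. Both otp90 libraries lay above both Col-0 libraries, and the mean was 52.2 ± 3.34 CPM for otp90, against 30.6 ± 3.80 CPM for Col-0 (SD, 2 libraries each). The log2 fold change was 0.77 (SE 0.45, 95% interval -0.25 to 1.79), with an unadjusted p of 0.12 and an adjusted p of 0.9998 from edgeR, so it did not pass. It stayed between 0.66 and 0.92 when single libraries were left out, where its positive sign follows from the separation of the libraries. PGR5 was the 1 member of 10 whose genotypes did not overlap, while 25.9% of all genes tested showed such a separation in either direction and 12.4% with otp90 higher.

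PGRL1A (AT4G22890) was at 169 and 174 CPM (203 and 306 reads) in otp90, against 85.8 and 197 CPM (209 and 361 reads) in Col-0. The 2 otp90 libraries were nearly equal and lay between the 2 Col-0 libraries, with a log2 fold change of 0.28 (SE 0.51). PGRL1B (AT4G11960), its paralog, had 7 and 15 reads in otp90, against 10 and 25 in Col-0. These are 5.82 and 8.53 CPM for otp90, against 4.11 and 13.6 CPM for Col-0, giving a log2 fold change of -0.27 (SE 0.80, 95% interval -2.09 to 1.55), an interval that spans a change of several fold in either direction.

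The balance between the PGRL1 paralogs was measured as the share of PGRL1B in their joint reads. That share was 3.33% (95% Wilson interval 1.62 to 6.72) and 4.67% (2.85 to 7.57) in otp90 replicates 1 and 2. In Col-0 it was 4.57% (2.5 to 8.20) and 6.48% (4.43 to 9.39). Intervals cover counting error only, and reads amplified by PCR are not independent molecules. The mean share was 4.0% ± 0.947 for otp90, against 5.52% ± 1.35 for Col-0 (SD, 2 libraries each), a difference of -1.52 percentage points with an exact two-sided permutation p of 0.667, where 0.33 is the smallest p that 2 against 2 libraries allow. With 1 library left out, the difference was smallest, at -0.563, when Col-0 replicate 2 was removed (-0.849 for otp90 replicate 1), and largest, at -2.47, when Col-0 replicate 1 was removed. Reads that aligned equally well to several places had been removed before counting. In the RefSeq transcripts of build TAIR10.1 the paralogs aligned over 681 bases at 86.5% identity and over 72 more at 84.7%, and they shared 0 windows of 50 bases.

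NDHL, NDHM, NDHN and NDHO are nuclear-encoded subunits of subcomplex A, the arm that faces the stroma, and the genotypes overlapped in all 4. NDHM (AT4G37925) was at 54.9 and 69.4 CPM (66 and 122 reads) in otp90, against 19.3 and 109 CPM (47 and 200 reads) in Col-0, with both otp90 libraries between the Col-0 libraries and a log2 fold change of -0.04 (SE 0.72). NDHL (AT1G70760), a membrane-spanning subunit also known as CRR23, was at 62.3 and 59.1 CPM (75 and 104 reads) in otp90, against 35.3 and 71.5 CPM (86 and 131 reads) in Col-0. Here too the otp90 libraries lay inside the Col-0 range, and the log2 fold change was 0.19 (SE 0.50).

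NDHN (AT5G58260) was at 54.0 and 27.3 CPM (65 and 48 reads) in otp90, against 10.3 and 44.8 CPM (25 and 82 reads) in Col-0. Its lowest library held 25 reads, and its log2 fold change of 0.57 (SE 0.70) ranged from -0.14 to 1.98 when single libraries were left out. NDHO (AT1G74880) was at 52.4 and 31.8 CPM (63 and 56 reads) in otp90, against 23.0 and 71.0 CPM (56 and 130 reads) in Col-0. Both genotypes thus had 1 high and 1 low library of NDHO, and the log2 fold change was -0.16 (SE 0.61).

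NDHS (AT4G23890), also known as CRR31, was at 111 and 54.0 CPM (134 and 95 reads) in otp90, against 88.7 and 55.7 CPM (216 and 102 reads) in Col-0. Its 2 high libraries were those numbered 1, one of each genotype, and its log2 fold change between genotypes was 0.19 (SE 0.52). PNSB1 (AT1G15980), also called NDF1 or NDH48, was at 146 and 170 CPM (176 and 299 reads) in otp90, against 51.3 and 185 CPM (125 and 339 reads) in Col-0. PNSB1 was low in Col-0 replicate 1 alone, and its log2 fold change was 0.42 (SE 0.61). PNSL1 (AT2G39470) was at 36.6 and 78.5 CPM (44 and 138 reads) in otp90, against 36.1 and 83.0 CPM (88 and 152 reads) in Col-0. Within each number its 2 genotypes were almost equal, and the log2 fold change was -0.04 (SE 0.58).

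**Figure D2:**
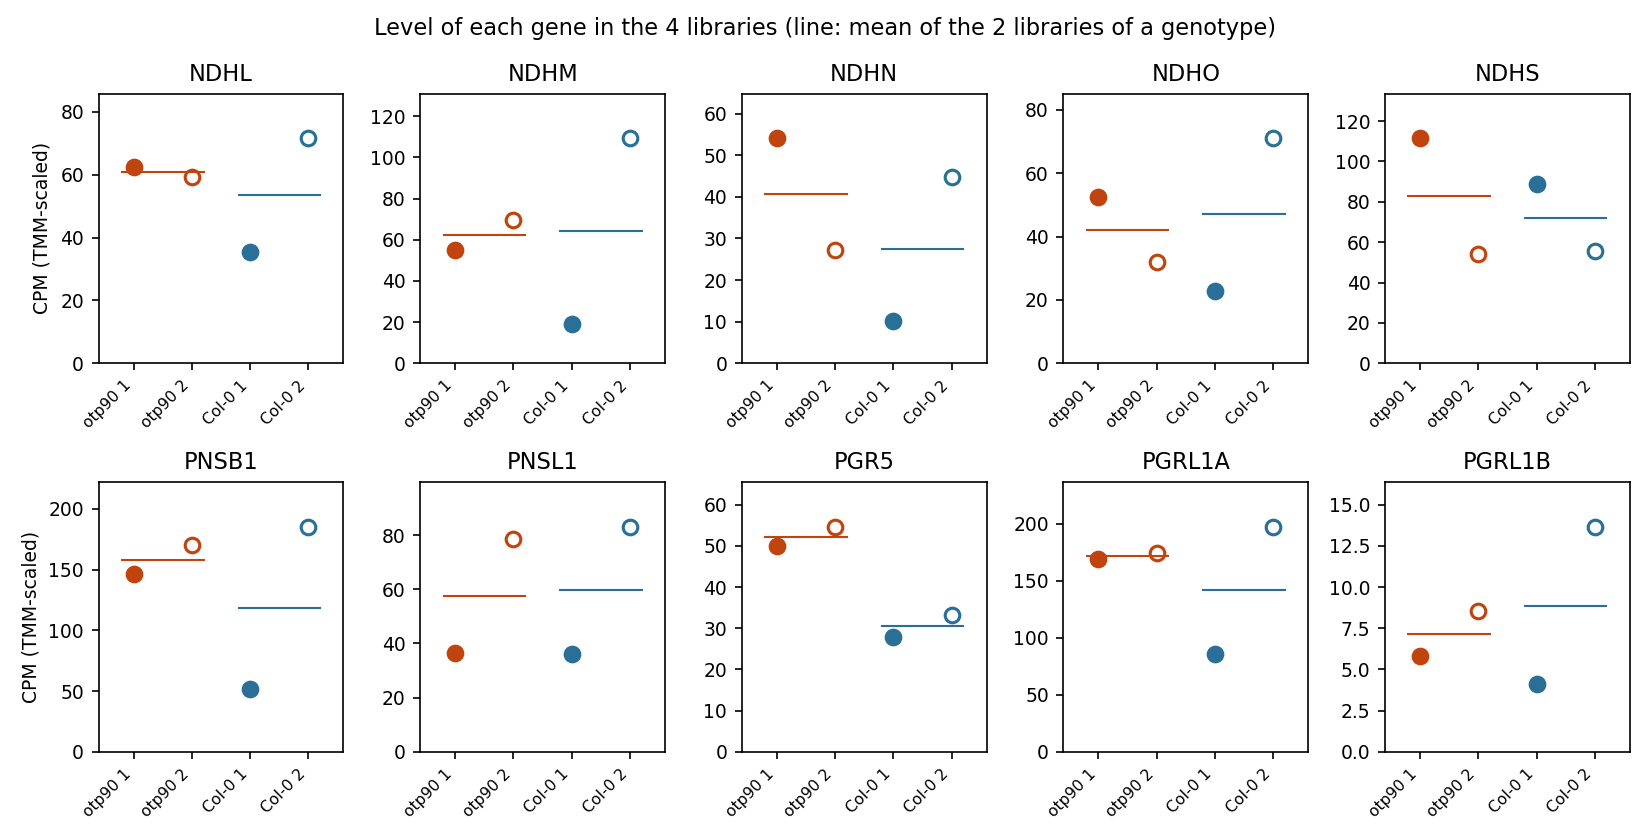
Level of each gene in TMM-scaled CPM (y axis, from 0) in each library (x axis); orange is otp90, blue is Col-0, filled points are replicate 1, open points replicate 2, and lines are the mean of the 2 libraries of a genotype. PGR5 is the gene whose otp90 libraries (49.9 and 54.6 CPM) both lie above its Col-0 libraries (27.9 and 33.3 CPM), and in 9 genes Col-0 replicate 1 is the lowest point.

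The difference between genotypes depended on which libraries were set side by side. Between the libraries numbered 1, otp90 was above Col-0 in 10 of 10 members, with a median log2 ratio of 0.91, from 0.02 in PNSL1 to 2.40 in NDHN. Between the libraries numbered 2, otp90 was above Col-0 in 1 of 10 members, with a median log2 ratio of -0.23, from -1.16 in NDHO to 0.71 in PGR5. PGR5 was the member with a positive ratio in both, at 0.84 in number 1 and 0.71 in number 2, as its separation by genotype implies. Over all genes tested the medians, taken after adding 0.5 to each CPM (which the members' ratios do without), were 0.0076 and 0.0028. Each of these ratios compares 1 library with 1 library and has no replicate check.

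**Figure D3:**
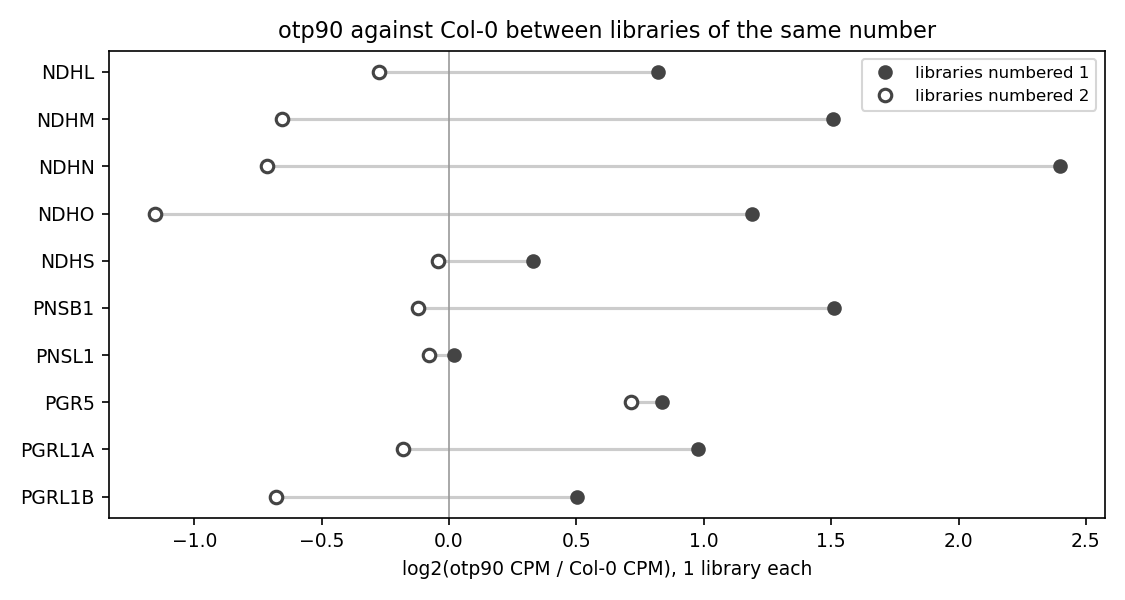
Log2 ratio of otp90 CPM to Col-0 CPM (x axis) for each gene (y axis), taken between the libraries numbered 1 (filled) and between those numbered 2 (open), 1 library on each side. All 10 filled points are above 0, and 9 of the 10 open points are below it, PGR5 at 0.71 being the exception.

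Leaving out Col-0 replicate 1 turned the median of the 10 log2 fold changes to -0.22, with 2 positive, and leaving out Col-0 replicate 2 brought it to 0.90, with 9 positive. Without Col-0 replicate 2 the largest values were 1.98 for NDHN, 1.70 for NDHM and 1.64 for PNSB1, and 0 members were called, with 3 at an unadjusted p under 0.05, against 5.5% of all genes in that fit, and edgeR adjusted p of 0.381, 0.521 and 0.532 for these 3 genes. With either otp90 library left out, 7 of the 10 were positive. No member was called in any of these reduced fits, where the share of all genes called was 0.176% (otp90 replicate 1 removed), 0% (otp90 replicate 2), 0.223% (Col-0 replicate 1) and 0.247% (Col-0 replicate 2).

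The libraries were then set side by side by replicate number, with genotype as a term, because both genotypes carry the numbers 1 and 2. The labels do not say what the number marks. No member was called by edgeR's quasi-likelihood test, against 0.804% of all genes (0.0335% higher and 0.771% lower in number 2). At an unadjusted p under 0.05 there were 2 members, NDHM and PNSL1, both higher in number 2, against 8.76% of all genes in either direction and 3.68% with number 2 higher. DESeq2 and edgeR's likelihood ratio test also called 0 members, against 99 and 253 of the 11938 genes tested. They had 1 and 2 members at an unadjusted p under 0.05, against 635 and 1201 of these genes. Of the 10 log2 fold changes 9 were positive, with a median of 0.58, against 51.6% positive and a median of 0.03 over all genes tested. Within Col-0 the members' log2 ratio of number 2 to number 1 had a median of 1.41, with 9 positive. Within otp90 the median was 0.09, with 6 positive. Each of these ratios compares 1 library with 1 library, and a difference between the genotypes in them was not tested. Of the 5 leaf markers, the light-harvesting genes LHCB2.1 (-3.94; edgeR adjusted p = 0.00124) and LHCB3 (-3.0; edgeR adjusted p = 0.0129) fell in number 2. The other 3 had positive log2 fold changes that did not pass, RBCS1A at 0.12, RCA at 0.16 and GAPA at 0.39, and the median of the 5 was 0.12. RBCS1A, RCA and GAPA were each lower in number 2 within otp90 and higher within Col-0. Their log2 ratios were -1.93 and 2.17 for RBCS1A, -0.30 and 0.63 for RCA, and -0.10 and 0.88 for GAPA. The root marker PYK10 was at 1.35 and did not pass (edgeR adjusted p = 0.374). The part of these markers in the members' values was not tested. In 6 members the numbers did not overlap, against 41.5% of all genes. In 5 of them both number 2 libraries lay above both number 1 libraries, against 21% of all genes, and in NDHS both lay below, against 20.5%.

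PNSL1 showed the closest match of genotypes within a number. Its number 2 libraries were at 78.5 (otp90) and 83.0 CPM (Col-0), against 36.6 (otp90) and 36.1 CPM (Col-0) for number 1. Its log2 fold change between numbers was 1.15 (SE 0.46, 95% interval 0.18 to 2.12; edgeR adjusted p = 0.422), and it stayed between 1.13 and 1.17 when single libraries were left out. NDHM had a log2 fold change of 1.41 (SE 0.56; edgeR adjusted p = 0.427), with a log2 ratio of number 2 to number 1 of 0.34 within otp90 and 2.5 within Col-0. PNSB1 was at 1.03 (SE 0.50), with 0.22 within otp90 and 1.85 within Col-0.

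Without otp90 replicate 1, which leaves number 1 with Col-0 replicate 1 alone and drops the genotype term, NDHM (2.21; edgeR adjusted p = 0.00457) and PNSB1 (1.80; edgeR adjusted p = 0.0182) were called higher in number 2. Number 1 is then a single library, the one with the lowest level of both genes, and it is assumed to vary like the libraries of number 2. In that fit 3.74% of all genes were called, 1.92% with number 2 higher. Without otp90 replicate 2, Col-0 replicate 1 or Col-0 replicate 2, 0 members were called, against 1.3%, 1.54% and 1.57% of all genes. Across all alternatives their adjusted p ran from 0.00457 to 0.771 for NDHM and from 0.0182 to 1.0 for PNSB1.

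NDHS was the member with a negative log2 fold change between numbers. For number 2 it had 54.0 (otp90) and 55.7 CPM (Col-0), against 111 (otp90) and 88.7 CPM (Col-0) for number 1. The log2 fold change was -0.86 (SE 0.45, 95% interval -1.81 to 0.10; edgeR adjusted p = 0.656), and it was negative within otp90 (-1.04) and within Col-0 (-0.67). It did not pass, and the difference between NDHS and the other subunits was not tested.

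**Figure D4:**
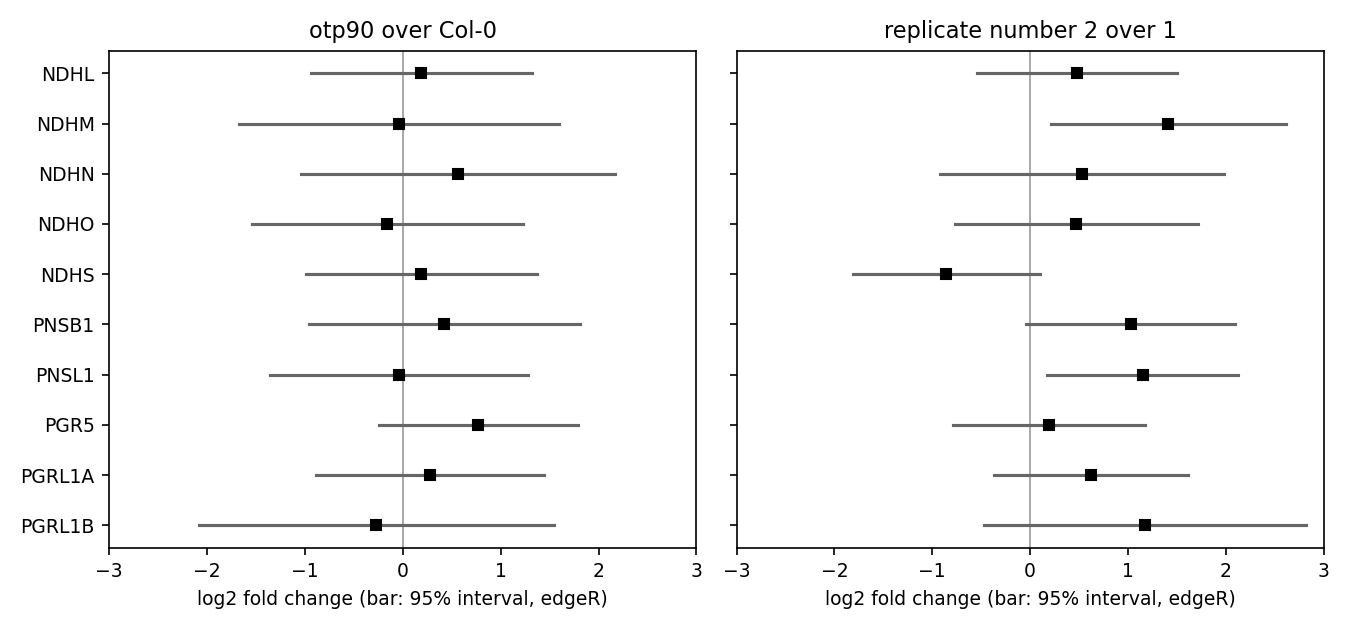
Log2 fold change of each gene (squares) with its 95% interval from edgeR (bars), for otp90 over Col-0 (left) and for replicate number 2 over 1 (right). Every interval on the left includes 0, and on the right the intervals of NDHM (0.21 to 2.62) and PNSL1 (0.18 to 2.12) do not, although neither passed after adjustment.

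Some of these genes overlap a neighbour on the other strand, and the sources used here do not state whether reads were counted by strand. In the TAIR10.1 annotation 5 of the 10 do so: NDHL, NDHN, NDHS, PNSB1 and PNSL1. The protein-coding neighbours of NDHS (AT4G23885) and PNSB1 (AT1G15990) had at most 8 and 3 reads in any library. The neighbour of NDHL, AT1G70770, was at 120 to 184 CPM, that of PNSL1, AT2G39480, at 19.9 to 35.5 CPM, and those of NDHN, AT5G58250 and AT5G58270, at 9.97 to 21.8 and 4.11 to 20.8 CPM. Like NDHN, AT5G58270 was highest in otp90 replicate 1 and lowest in Col-0 replicate 1. For AT5G58250 these libraries were the lowest and the highest. The part of these neighbours in the NDHN values was not tested. NDHL and NDHS each also overlap a non-coding RNA gene, AT1G09193 and AT4G07190, whose levels were not analysed. Counts of NDHL, NDHN, NDHS and PNSL1 may therefore include reads of their neighbours. No window of 50 bases in any member transcript occurred at more than 1 place in that genome.

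The 13 other nuclear genes for NDH subunits and their linkers to photosystem I were all tested. Between genotypes 0 were called, against 0% of all genes, and between numbers 0, against 0.804%. Between genotypes 11 of 13 log2 fold changes were positive, with a median of 0.34 and 0 at an unadjusted p under 0.05. PNSB2 (AT1G64770), a partner of PNSB1 in the B subcomplex, was at 79.8 and 106 CPM in otp90, against 31.2 and 71.0 CPM in Col-0, giving a log2 fold change of 0.87 (SE 0.52). NDHU (AT5G21430), a J-domain-like subunit near the ferredoxin-binding site, was at 111 and 94.4 CPM in otp90, against 39.8 and 90.1 CPM in Col-0, giving a log2 fold change of 0.67 (SE 0.51). Both genes separated by genotype, with all otp90 libraries above all Col-0 libraries, as did 4 of the 13, against 12.4% of all genes tested.

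These 13 genes had their lowest level in Col-0 replicate 1 in 13 of 13 cases. Between numbers 13 of 13 log2 fold changes were positive, with a median of 0.90, and 3 reached an unadjusted p under 0.05, all with number 2 higher, against 3.68% of all genes. PNSL2 (AT1G14150), a PsbQ-like subunit of the lumen side, was at 33.6 (otp90) and 39.8 CPM (Col-0) for number 2, against 21.6 (otp90) and 4.52 CPM (Col-0) for number 1 (log2 fold change 1.81, SE 0.65; edgeR adjusted p = 0.348). AT2G04039, which the annotation leaves without a symbol, was at 1.72 (SE 0.59; edgeR adjusted p = 0.312). Within Col-0 the 13 genes had a median log2 difference between numbers of 1.26, and within otp90 of -0.03.

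Assembly factors of the complex were tested in 7 of 8 cases. In both comparisons 0 were called, against 0% of all genes between genotypes and 0.804% between numbers. CRR42 had 0 and 2 reads in otp90 and 1 and 8 in Col-0 and was not tested. Between genotypes 3 were positive and 4 negative, with a median of -0.05. CRR1 (AT5G52100) was at 13.3 and 15.9 CPM in otp90, against 20.5 and 22.9 CPM in Col-0 (log2 fold change -0.56, SE 0.52), and CRR6 (AT2G47910), needed to assemble the A subcomplex, was at 0.51 (SE 0.48). Between numbers 7 of 7 were positive, with a median of 0.54. Among them AT5G52780, which the annotation leaves without a symbol, was at 1.11 (SE 0.49) and CRR7 (AT5G39210) at 1.08 (SE 0.75).

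The plastid ndh genes, whose products meet the nuclear subunits in the same complex, had mostly negative log2 fold changes between numbers. Of the 10 tested, 0 were called between numbers, against 0.804% of all genes, and 0 between genotypes, against 0%. Both copies of ndhB, which lie in the inverted repeat, were listed at 0 in all libraries after removal of tied reads. Between numbers 1 of 10 log2 fold changes was positive, with a median of -0.41. The largest differences were ndhH at -0.92 (SE 0.45; edgeR adjusted p = 0.594) and ndhD at -0.71 (SE 0.45). The NDHS value of -0.86 lay within the range of the plastid genes, from -0.92 to 0.12, and outside that of the other 6 NDH members, from 0.47 to 1.41. Between genotypes the plastid genes were positive in 10 of 10, from 0.02 in ndhE to 0.52 (SE 0.48) in ndhJ with ndhG at 0.48 (SE 0.45), in a comparison that uses the same libraries as the members' own.

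**Figure D5:**
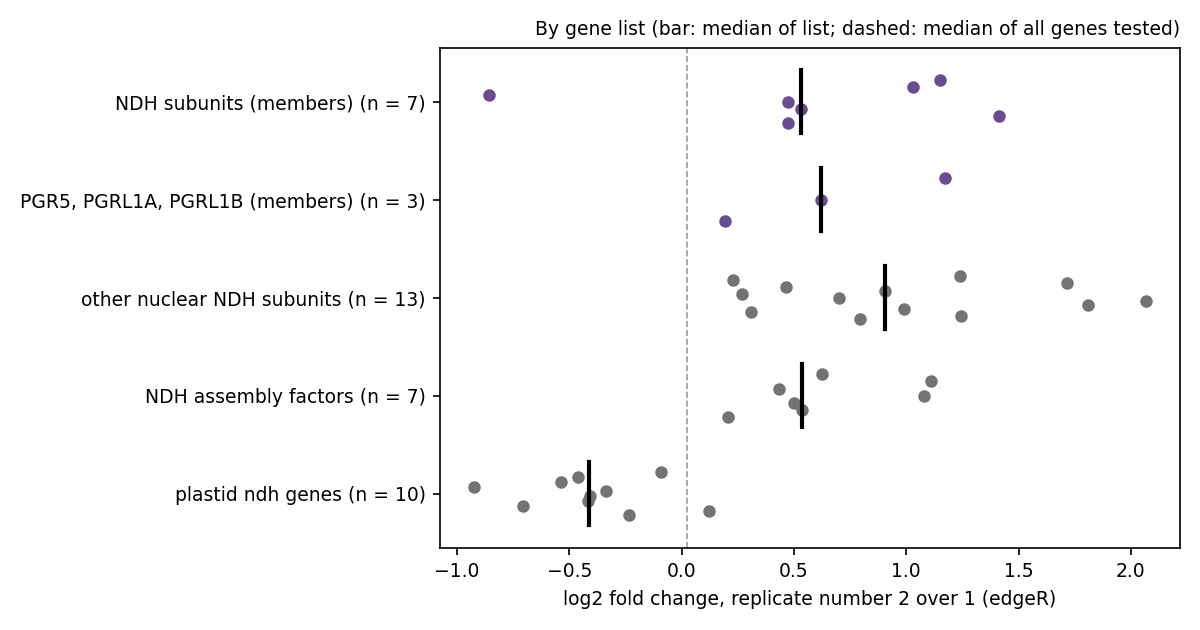
Log2 fold change between replicate numbers 2 and 1 (x axis, edgeR with genotype as a term) for the genes of 5 lists (y axis); purple points are the 10 members, grey points other genes, bars the median of a list, and the dashed line the median of all genes tested (0.03). The nuclear lists have medians of 0.53 to 0.90 and the plastid ndh genes of -0.41, with NDHS (-0.86) as the 1 purple point below 0; no gene shown was called.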

How the data were processed

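The deposited values are raw counts of reads per gene model, made by the authors with sam2pkm, per the file headers. Reads with tied best and second alignment scores (79.9% to 87.0% of mapped reads) were removed first, per the file headers. Per the labels' protocols, libraries were stranded, single-end Ion Proton libraries depleted of rRNA. Per the submitters' processing notes the genome was TAIR10. The sources used here name no aligner. Lengths of gene models, another deposited column, served for levels per kilobase.

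Counts were tested with edgeR 4.0.16 in R 4.3.3: 15 rRNA gene models were left out, genes kept by filterByExpr (11938), libraries scaled by TMM, and the two-sided quasi-likelihood test adjusted by Benjamini-Hochberg over all genes and called at 0.05. The genotype fit had no replicate block, and the fit of replicate numbers had genotype as a term. Standard errors come from the fold change and the F statistic, and 95% intervals from its degrees of freedom. DESeq2 1.42.0, other scalings, no low-count filter, rRNA kept, a replicate block and leaving out each library were alternatives. PGRL1 shares were compared by exact permutation (Wilson intervals, SciPy 1.17.1), and paralogs aligned with BLAST 2.17.0. The fits were tested on simulated data. The replicates were not 1 library deposited more than once, since counts of otp90 replicates (chi-square over degrees of freedom 14.4) and of Col-0 replicates (23.7) differed beyond sampling noise.

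Names came from RefSeq TAIR10.1, which matched all 10 members; as the builds differ, no coordinates or sequences are given. Its annotation has no locus tag for the plastid genes of the files; of the 12 ndh models 9 had the length of the annotated gene of that symbol, ndhD differed by under 2% and both ndhB copies by more. All 10 members are named, and of each other list up to 2 genes with the smallest p per comparison. Named besides these were genes with a library at 0 (CRR28, CRR42 and ndhB), ndhE and further leaf markers. The members, lists, tests and the comparison by number were chosen with earlier results of these data known. Neighbours, within-number ratios and the genes at 0 were picked after their values were seen.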

Additional observations from a re-analysis of the deposited data

How the results depend on the processing

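Between genotypes, 0 members were called under every alternative run, and the count over all genes ran from 0 to 33 with 1 library left out (24 when this was otp90 replicate 1, 30 for Col-0 replicate 1 and 33 for Col-0 replicate 2). Signs of the members' log2 fold changes held in 69 of 70 values under the alternatives that keep all libraries, and NDHM turned to 0.38 with the replicate block. With 1 library left out, 13 of 40 values changed sign. The ranges were -0.22 to 0.80 for NDHL, -0.79 to 1.70 for NDHM, -0.14 to 1.98 for NDHN, -0.75 to 0.88 for NDHO, -0.40 to 0.64 for NDHS, -0.21 to 1.64 for PNSB1, -0.67 to 0.70 for PNSL1, -0.19 to 1.01 for PGRL1A and -0.89 to 0.82 for PGRL1B. PGR5 kept its sign, as the separation of its libraries by genotype implies. Between numbers, members called ran from 0 to 2 and genes called from 178 to 511 with 1 library left out, and genes called were 96 in the reported fit, 214 without the low-count filter and 253 by the likelihood ratio test; the cause was not tested. NDHN (-0.58 to 1.81), NDHO (-0.20 to 1.16) and PGR5 (-0.24 to 0.66) changed sign there, in fits that had no genotype term. The PGRL1B difference kept its sign, from -2.47 to -0.563 with 1 library left out and -1.50 with counts per length.

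Whether the numbers pair the libraries is not given by the labels. The deviations of the libraries numbered 1 from their genotype means had a correlation of 0.217 across genes, with 2 pairs only. With the replicate block 0 members and 0 genes were called between genotypes, with 257 genes at an unadjusted p under 0.05, against 168 without it. Depth was lowest for PGRL1B, at 7 to 25 reads per library. A lone library left in a genotype or a number is assumed to vary like the libraries of the other.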

Other observations

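Genes that process plastid ndh transcripts and genes of partner proteins were read beside the members. Of 5 pentatricopeptide repeat genes that cut or edit ndh RNA, all were tested and 0 were called between genotypes (edgeR), with 2 at an unadjusted p under 0.05, against 1.41% of all genes. CRR22 (AT1G11290), an editing factor, had 14 and 16 reads in otp90, against 5 and 6 in Col-0, giving a log2 fold change of 1.94 (SE 0.79). CRR2 (AT3G46790), needed to process ndhB RNA, had 22 and 55 reads in otp90, against 14 and 11 in Col-0, at 2.07 (SE 0.61). CRR28 and CRR21, which are editing factors too, lay lower in otp90, with 6 and 0 reads of CRR28 in otp90, against 17 and 11 in Col-0, and 6 and 19 reads of CRR21 in otp90, against 29 and 37 in Col-0. Neither passed the test. Between numbers the smallest p in this list were those of CRR4 (AT2G45350), at 2.26 (SE 1.11) on 1 to 11 reads per library, and CRR21, at 0.90 (SE 0.66).

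Among 6 partners of the cyclic and chlororespiratory routes, 0 were called in either comparison, against 0% of all genes between genotypes and 0.804% between numbers. The plastid terminal oxidase gene PTOX (AT4G22260), which oxidises plastoquinol, was at 29.9 and 9.67 CPM in otp90, against 9.85 and 7.10 CPM in Col-0, giving a log2 fold change of 1.19 (SE 0.70). The main leaf ferredoxin gene FD2 (AT1G60950) was at 291 and 132 CPM in otp90, against 165 and 742 CPM in Col-0, at -1.10 (SE 0.73). Between numbers PTOX was at -1.07 (SE 0.66) and the ferredoxin reductase gene FNR2 (AT1G20020) at 0.67 (SE 0.47). Of these 6 genes 4 had their lowest level in Col-0 replicate 1.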
